A study of Mus musculus with 2 samples.

Results

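The mitochondrial genome of the mouse, chromosome M in assembly mm10, carries 37 genes, and all 37 were identified among the 43346 genes of the M4 gene table by their chromosome and their symbols, which start with mt-. They are 2 rRNA genes, 13 protein-coding genes and 22 tRNA genes, and each was listed in the M2, M3 and M4 gene tables of both libraries. The libraries were made from total RNA of CH12.LX, an immortalized B cell lymphoma line derived from mouse strain B10.H-2aH-4bp/Wts, labelled female. They form a single group, biological replicates 1 and 2, each with its own biosample record and a labelled size range of 300-350. There was no treatment or genotype contrast, so one library could only be set against the other, and the tests cover counting error in these libraries, not the variation of cultures.

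Mitochondria keep a small circular genome that encodes core subunits of the respiratory chain and ATP synthase, together with the rRNAs and tRNAs that translate them. Both strands are transcribed as long precursors, and the tRNAs that lie between the other genes are cut out to release the rRNAs and mRNAs. Every protein needed for this expression, including the RNA polymerase and the mitochondrial ribosomal proteins, is encoded in the nucleus. Segments of mitochondrial DNA have also been inserted into nuclear chromosomes during evolution, where they are annotated as pseudogenes.

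Expected counts in the M4 gene table summed to 49278383 for replicate 1 and to 55950529 for replicate 2. A level of 1 TPM (a length-scaled share of all transcripts) or more in each library was reached by 9571 genes, 22.1% of the table. All 7 B cell markers reported, such as Cd79b and Pax5, were at that level, and their TPM summed to 228 in replicate 1 and 216 in replicate 2. Of 12 markers of other cell types, Cd3g, Cd3d and Epcam reached it, Cd3e was listed at 0, and the 12 summed to 7.05 TPM in replicate 1 against 5.91 in replicate 2.

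The 37 mitochondrial genes held 0.596% of the expected counts in replicate 1 and 0.525% in replicate 2 (0.560% ± 0.0507, SD, n = 2). Their share of TPM was 0.361% in replicate 1 and 0.274% in replicate 2. The 13 mRNAs alone made up 1.28% of the TPM of protein-coding genes in replicate 1 and 0.946% in replicate 2. In the M2 table that share was 1.88% in replicate 1 and 1.51% in replicate 2. The share was higher in replicate 1 on each of these scales. The number of mitochondria in a cell and the RNA from each of them cannot be told apart in such data. The cause of the difference between the libraries was not tested, nor was the part of fragment size in it. Of the 37 genes, 15 were at 1 TPM or more in both libraries, namely both rRNAs and all 13 mRNAs.

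None of the 22 tRNA genes received a count. The tRNAs, which carry the amino acids to the mitochondrial ribosome, are 59 to 75 bases long here, with 14 on the plus and 8 on the minus strand of the reference. Their effective length, the part of a transcript in which a fragment of the library's sizes can start, was 0 in both libraries, and so were their TPM and both of its credibility bounds. An effective length of 0 in both libraries was deposited for 5219 genes, and none of these had a TPM above 0, although 95 held a count above 0. The gene length minus the effective length of mt-Nd5 was 159 bases in replicate 1 and 166 bases in replicate 2. A TPM of 0 for a tRNA in these tables is therefore no measure of its RNA. The longest and the shortest tRNA gene are shown because both lie far under these lengths. mt-Tl1, a leucine tRNA, lies at chrM:2676-2750 and mt-Ts2, a serine tRNA, at chrM:11613-11671, both on the plus strand of mm10.
mt-Tl1: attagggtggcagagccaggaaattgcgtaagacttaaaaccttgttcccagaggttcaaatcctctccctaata
mt-Ts2: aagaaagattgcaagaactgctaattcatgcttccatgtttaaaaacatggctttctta

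The rRNAs, which form the mitochondrial ribosome, were below the highest mRNAs. mt-Rnr1, the 12S rRNA of the small subunit (chrM:70-1024), had 175 TPM in replicate 1 against 155 in replicate 2. mt-Rnr2, the 16S rRNA of the large subunit (chrM:1094-2675), had 310.3 TPM in replicate 1 against 286 in replicate 2. The 16S rRNA was higher than the 12S rRNA in both libraries, by a TPM ratio of 1.78 in replicate 1 and 1.84 in replicate 2. The rRNAs together held 21.8% of the counts of the 37 genes in replicate 1 and 21.7% in replicate 2. No source used here says whether rRNA was removed before sequencing.

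The mRNAs of complex IV (cytochrome c oxidase), which passes electrons to oxygen, contained both the highest and the lowest mean TPM among the 15 measured genes of the M4 table. mt-Co1, the catalytic subunit (chrM:5328-6872), had 810.3 TPM in replicate 1 against 917 in replicate 2. mt-Co3 (chrM:8607-9390), the third core subunit, had 361 TPM in replicate 1 against 194 in replicate 2. mt-Co2 (chrM:7013-7696), which takes electrons from cytochrome c, had 26.4 TPM in replicate 1 against 4.48 in replicate 2. It was the lowest in replicate 2 only, since mt-Nd6 had 14.1 TPM in replicate 1. By mean TPM, mt-Co1 ranked 48 and mt-Co2 ranked 2228 among 21474 protein-coding genes. In the M2 table of the same libraries mt-Co2 had 705 TPM in replicate 1 against 516 in replicate 2, and it ranked 76 among 21226. Its level thus depended on the annotation release far more than on the library.

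The deposited estimate for mt-Co2 was also unstable within the M4 table. Its TPM lay below the deposited credibility interval in both libraries, which ran from 92.2 to 561 TPM in replicate 1 and from 4.76 to 325 TPM in replicate 2. Its expected count was 1532 in replicate 1 and 280.4 in replicate 2. The posterior mean count was 17761 ± 9827 (posterior SD) in replicate 1 and 7501 ± 6336 in replicate 2. For mt-Co3 the posterior mean count was 28855 ± 15213 in replicate 1 and 23093 ± 14665 in replicate 2. In the M2 table the posterior SD of mt-Co2 was 0.59 counts in replicate 1, so the wide spread was present with one annotation and not with the other.

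The counts that mt-Co2 lacked in M4 were found at annotated nuclear copies. A search of the annotated transcripts found 17 genes outside chromosome M that match a mitochondrial gene at 90% identity or more over at least 100 bases, and 15 of them were listed in M4. Of these, 7 lie side by side on chromosome 1, at chr1:24611535-24616197 on the minus strand, a span of 4663 bases in mm10. The annotation calls them unprocessed pseudogenes, and 5 of the 7 match their mitochondrial gene with 0 mismatches while 2 have 1 mismatch. Gm28661 repeats 681 bases of mt-Co2, Gm28437 repeats 783 bases of mt-Co3, and Gm10925 repeats 678 bases of mt-Atp6, all with 0 mismatches. Of these 7, Gm10222, a copy of mt-Nd4l, was the one listed in M2.

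The same 60 bases of mt-Co2 and of its copies are shown because the result turns on which copy has the same sequence. They are from mt-Co2 at chrM:7457-7516 on the plus strand, Gm28661 at chr1:24615062-24615121 on the minus strand and Gm13341, a pseudogene on chromosome 2, at chr2:22587471-22587530 on the minus strand, all in mm10. Capitals mark the 6 positions at which Gm13341 differs from mt-Co2, and Gm28661 differs at 0 of the 60.
mt-Co2: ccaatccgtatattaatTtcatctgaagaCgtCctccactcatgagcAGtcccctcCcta
Gm28661: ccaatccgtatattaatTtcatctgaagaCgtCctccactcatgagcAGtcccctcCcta
Gm13341: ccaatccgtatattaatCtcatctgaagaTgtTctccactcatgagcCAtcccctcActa

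The identical copy Gm28661 received 38293 expected counts in replicate 1 and 31007 in replicate 2. The diverged copy Gm13341 received 9.28 counts in replicate 1 and 4.07 in replicate 2. Over all copies, the 7 on chromosome 1 held 95038 counts in replicate 1 and 99048 in replicate 2. The 8 copies elsewhere, at 90.67% to 97.61% identity, held 31.7 counts in replicate 1 and 21.4 in replicate 2. The counts at copies were thus almost entirely at those with 0 or 1 mismatch. A match with 0 mismatches did not always bring counts, since Gm28439, which repeats 876 bases of mt-Nd4, had 0 counts in both libraries, and Gm10222 had 21.9 in replicate 1 and 1.42 in replicate 2.

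The copies of mt-Co1 and mt-Nd3 on chromosome 1 each have 1 mismatch in the aligned bases. With positions counted from 1 at the first base of the mitochondrial gene, they are A1066T between mt-Co1 and Gm29216 and T3C between mt-Nd3 and Gm28438. The bases around each are shown because they are what separates the gene from its copy, with capitals where gene and copy differ. mt-Co1 is at chrM:6381-6433 on the plus strand and Gm29216 at chr1:24616145-24616197 on the minus strand, and mt-Nd3 is at chrM:9459-9501 on the plus strand and Gm28438 at chr1:24613077-24613119 on the minus strand. Gm29216 aligns from its base 10, and the capitals before that base lie outside the aligned part.
mt-Co1: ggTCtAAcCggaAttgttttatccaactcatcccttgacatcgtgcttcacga
Gm29216: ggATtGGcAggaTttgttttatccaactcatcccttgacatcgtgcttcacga
mt-Nd3: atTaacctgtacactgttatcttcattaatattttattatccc
Gm28438: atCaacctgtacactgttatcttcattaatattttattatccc

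The division of counts differed among genes and releases. Of the counts of mt-Co2 and its copies together, the copies took 96.2% in replicate 1 and 99.1% in replicate 2 in M4, and 93.9% in replicate 1 and 92.2% in replicate 2 in M3. For mt-Co3 the copies took 61.1% in replicate 1 and 76.7% in replicate 2 in M4, and 71.6% in replicate 1 and 83.4% in replicate 2 in M3. For mt-Atp6 they took 22.3% in replicate 1 and 24.6% in replicate 2 in M4. These 3 genes have copies with 0 mismatches, yet the share given to the copy was high for one and low for another. For mt-Co1 the share in M4 was 8.0% in replicate 1 and 8.90% in replicate 2, and for mt-Nd3 it was 0.642% in replicate 1 and 0.425% in replicate 2. Gm29216 aligns to 483 of the 1545 bases of mt-Co1, so its share of counts is not comparable with that of full-length copies. On TPM, which allows for length, Gm29216 had 292.5 in replicate 1 and 378 in replicate 2, beside 810.3 and 917 for mt-Co1. In M2 the copy of mt-Nd4l took 50% of the pair in each library, and in M4 it took 2.67% in replicate 1 and 0.247% in replicate 2.

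**Figure D1:**
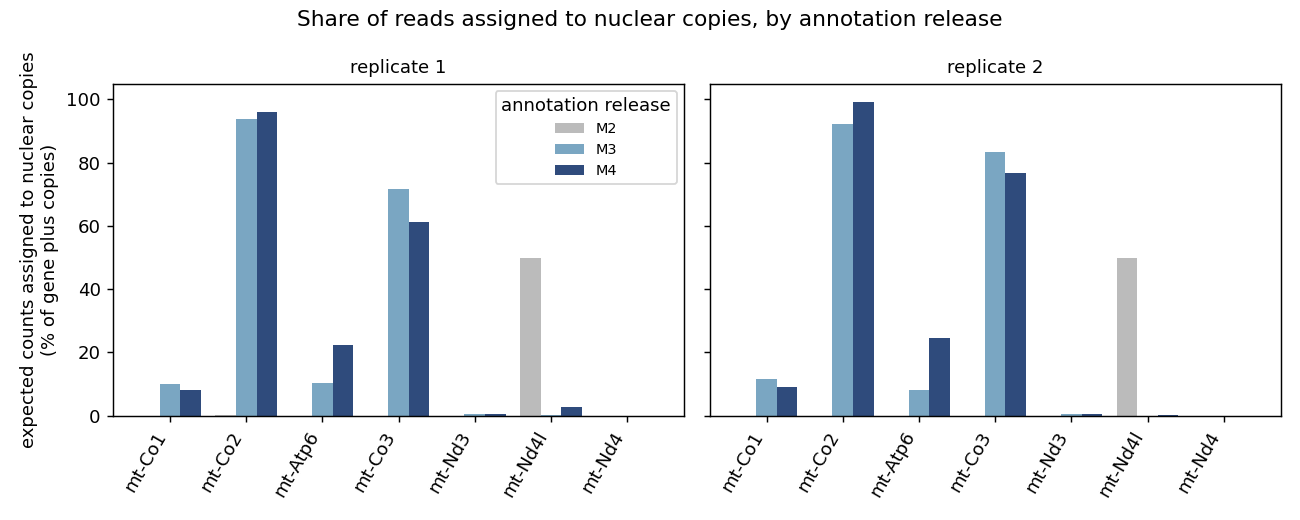
Percent of the expected counts of a mitochondrial gene and its nuclear copies that was assigned to the copies, for 7 genes, in replicate 1 (left) and replicate 2 (right), with a bar for each annotation release. The bars of mt-Co2 reach 96.2% and 99.1% in M4 and are near 0 in M2, while mt-Nd4l shows 50% in M2.

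The sum over a gene and its copies barely moved between releases. The largest difference of such a sum from its M2 value was 3 counts over all genes with a copy and both libraries. mt-Co2 with its copies summed to 39834 counts in replicate 1 and 31291 in replicate 2. The copies held 0.193% of all expected counts in replicate 1 and 0.177% in replicate 2. With them the mitochondrial share was 0.789% in replicate 1 and 0.702% in replicate 2 (0.745% ± 0.0619, SD, n = 2). Which genome those reads came from was not tested, and levels below are given with the copies' counts added to their gene where the copies matter.

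With the copies added, the complex IV mRNAs were 3 of the 4 highest mitochondrial mRNAs. mt-Co1 had 881 TPM in replicate 1 against 1006 in replicate 2. mt-Co3 had 929 TPM in replicate 1 against 833 in replicate 2. mt-Co2 had 687 TPM in replicate 1 against 499.9 in replicate 2. On TPM, mt-Co1 was the higher of mt-Co1 and mt-Co3 in replicate 2 only, and their ranges over the libraries overlapped. Per base of full length, mt-Co1 had 87.3 counts in replicate 1 and 108.5 in replicate 2. On that scale mt-Co3 had 81.8 and 79.3, so mt-Co1 was higher in both. The complex IV share of mitochondrial mRNA TPM with copies added was 54.9% in replicate 1 and 64.8% in replicate 2. With the M4 table as deposited it was 38.3% in replicate 1 and 48.6% in replicate 2.

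**Figure D2:**
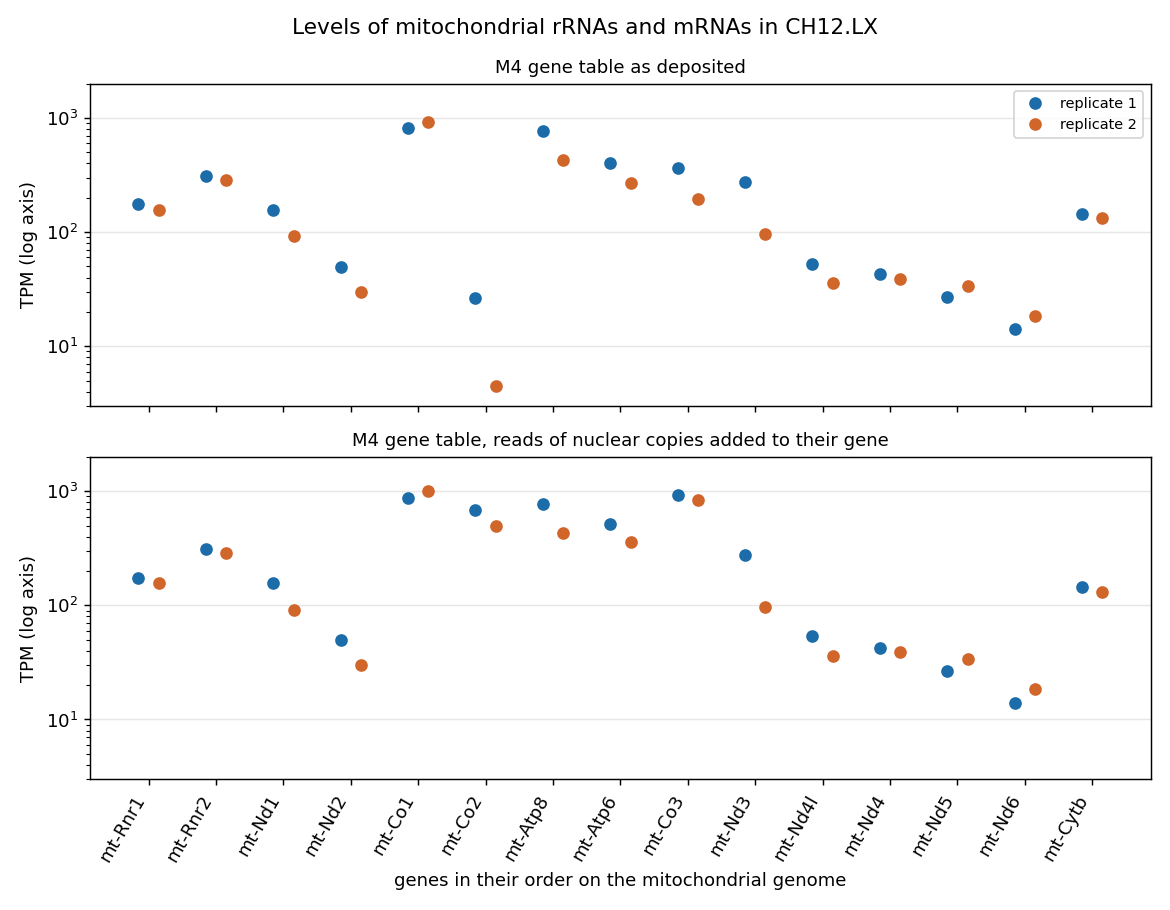
TPM on a log axis of the 2 rRNAs and 13 mRNAs in replicate 1 (blue) and replicate 2 (orange), in genome order, from the M4 table as deposited (top) and with the counts of nuclear copies added to their gene (bottom). mt-Co2 is the lowest point of replicate 2 in the top panel, at 4.48 TPM, and is at 499.9 TPM in the bottom panel.

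Complex V, the ATP synthase, has 2 mitochondrial subunits, encoded by overlapping genes on a shared mRNA. mt-Atp8 (chrM:7766-7969) had 766 TPM in replicate 1 against 432 in replicate 2. mt-Atp6, the proton channel subunit (chrM:7927-8607), had 521 TPM in replicate 1 against 358 in replicate 2 with its copy added. Both were higher in replicate 1. mt-Atp8 is 204 bases long, and its effective length was 45.2 bases in replicate 1 and 38.3 bases in replicate 2. Per base of full length, counts of mt-Atp8 were 0.425 times those of mt-Atp6 in replicate 1 and 0.300 times in replicate 2. On TPM the ratio was 1.47 in replicate 1 and 1.21 in replicate 2, so the order of the pair depended on the length used.

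Such overlaps mean that a read can belong to both genes. mt-Atp8 and mt-Atp6 share 43 bases, and mt-Nd4l and mt-Nd4 share 7 bases. The shared bases are in capitals, starting with the ATG start codon of the downstream gene, in chrM:7897-7999 and chrM:10137-10203 of mm10, plus strand.
mt-Atp8 to mt-Atp6: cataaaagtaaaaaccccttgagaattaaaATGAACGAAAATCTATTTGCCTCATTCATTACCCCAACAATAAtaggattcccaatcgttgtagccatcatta
mt-Nd4l to mt-Nd4: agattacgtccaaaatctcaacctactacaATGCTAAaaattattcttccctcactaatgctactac

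Complex I (NADH dehydrogenase), where electrons enter the chain from NADH, has 7 mitochondrial subunits, all in its membrane arm. mt-Nd3 (chrM:9459-9806) had the highest TPM in both libraries, with 275 in replicate 1 against 97.6 in replicate 2 with its copy added. mt-Nd1 (chrM:2751-3707) had 157 TPM in replicate 1 against 92.0 in replicate 2. Per base of full length, mt-Nd3 had 16.5 counts in replicate 1 and 6.17 in replicate 2. On that scale mt-Nd1 had 14.4 and 9.18, so it was above mt-Nd3 in replicate 2. mt-Nd2 (chrM:3914-4951) had 49.5 TPM in replicate 1 against 29.8 in replicate 2. These 3 mRNAs were all higher in replicate 1. mt-Nd4l (chrM:9877-10173) had 53.8 TPM in replicate 1 against 36.2 in replicate 2 with its copy added. mt-Nd4 (chrM:10167-11544), on the same mRNA as mt-Nd4l, had 42.6 TPM in replicate 1 against 39.1 in replicate 2. The TPM ratio of mt-Nd4l to mt-Nd4 was 1.26 in replicate 1 and 0.926 in replicate 2, so on TPM the order of this pair was not the same in the libraries. Per base of full length, counts of mt-Nd4l were 0.664 times those of mt-Nd4 in replicate 1 and 0.465 times in replicate 2, which puts mt-Nd4l lower in both.

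mt-Nd5 and mt-Nd6 had the lowest mean TPM of the complex I mRNAs, although mt-Nd5 was above mt-Nd2 in replicate 2 and their ranges over the libraries overlapped. Per base of full length, mt-Nd5 had 2.70 counts in replicate 1 and 3.68 in replicate 2. On that scale mt-Nd4l, with its copy added, had 2.76 and 1.93, so it was under mt-Nd5 in replicate 2. mt-Nd5 (chrM:11742-13565), a proton-pumping subunit, had 26.8 TPM in replicate 1 against 33.6 in replicate 2. mt-Nd6 (chrM:13552-14070) had 14.1 TPM in replicate 1 against 18.5 in replicate 2. Both were higher in replicate 2, unlike the other complex I mRNAs. mt-Nd6 is the single mRNA on the minus strand of the reference, and it made up 0.309% of mitochondrial mRNA TPM in replicate 1 and 0.513% in replicate 2 with copies added. Its base composition also stands apart, with 28.1% G and 5.97% C, against 5.88% to 16.1% G and 22.1% to 29.97% C in the other 12 mRNAs. mt-Nd5 and mt-Nd6 overlap at their ends on opposite strands, and whether the counting used the strand is not stated, so reads of that overlap are uncertain.

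Complex III (cytochrome bc1) has a single mitochondrial subunit. mt-Cytb, its cytochrome b (chrM:14145-15288), had 143 TPM in replicate 1 against 132 in replicate 2. It was among the most even members between the libraries. With the copies added, complex III held 3.16% of mitochondrial mRNA TPM in replicate 1 and 3.65% in replicate 2. Complex I held 13.6% in replicate 1 and 9.61% in replicate 2, with 7 genes. Complex V held 28.3% in replicate 1 and 21.9% in replicate 2, with 2 genes.

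Among the 15 measured members, the order by mean TPM with copies added was mt-Co1, mt-Co3, mt-Atp8, mt-Co2, mt-Atp6, mt-Rnr2, mt-Nd3, mt-Rnr1, mt-Cytb, mt-Nd1, mt-Nd4l, mt-Nd4, mt-Nd2, mt-Nd5 and mt-Nd6. The highest, mt-Co1, averaged 943 ± 88.7 TPM and the lowest, mt-Nd6, averaged 16.3 ± 3.16 TPM (SD, n = 2 each). Neighbours whose ranges over the libraries did not overlap were mt-Co3 and mt-Atp8, mt-Atp6 and mt-Rnr2, mt-Rnr2 and mt-Nd3, mt-Rnr1 and mt-Cytb, mt-Nd1 and mt-Nd4l, and mt-Nd5 and mt-Nd6. The other neighbours overlapped. The places of the shortest mRNAs depended on the length used. Per base of full length, mt-Atp8 had 18.7 counts in replicate 1 and 9.81 in replicate 2, under mt-Rnr2 with 30.8 and 31.0. On that scale mt-Nd4l had 2.76 and 1.93, under mt-Nd2 with 4.63 and 3.02. Across the 12 plus-strand mRNAs the Spearman correlation of gene start with log2 level was -0.32, a description over genes that share precursors and libraries.

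The reading frames carry the known features of the mitochondrial code. An ATG start codon opens 9 of the 13 mRNAs, while mt-Nd1 opens with GTG, mt-Nd2 with ATA, mt-Nd3 with ATT and mt-Nd5 with ATC. The annotated genes mt-Co3, mt-Nd4 and mt-Cytb end with a single T past the last full codon. In mammals such an end becomes a stop codon once the poly(A) tail is added.

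Between the libraries, 3 mRNAs of the M4 table passed the test, and all 3 were higher in replicate 1. They were mt-Co2, mt-Nd3 and mt-Atp8, 3 of 15 members tested or 20%, where 4.77% of all tested genes were called and 1.07% were called higher in replicate 1. A gene was called when an exact binomial test of its scaled counts had a Benjamini-Hochberg adjusted p under 0.05 over all tested genes and the ratio was at least 2. With the copies added, mt-Nd3 and mt-Atp8 passed and mt-Co2 did not, against 4.76% of all tested genes. The same pair passed in M2, where 4.66% of genes were called, and in M3, where 4.75% were.

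mt-Nd3 had 5757 counts in replicate 1 and 2148 in replicate 2 with its copy added, and its log2 ratio of replicate 1 over replicate 2 was 1.52 (95% counting interval 1.45 to 1.59). mt-Atp8 had 3822 counts in replicate 1 and 2001 in replicate 2, a log2 ratio of 1.03 (0.95 to 1.11). The lower end of that interval is under the log2 value of 1 that the ratio criterion sets, and its TPM differed by less than the ratio of 2, at 766 TPM in replicate 1 against 432 in replicate 2. mt-Co2 had a log2 ratio of 2.55 (2.37 to 2.74) in M4 as deposited, 0.10 in M3 and 0.45 (0.43 to 0.47) with its copies added. Its call therefore ended once the copies were counted with it. The credibility intervals of TPM stood apart in 11 of the 15 members, where this held for 48.5% of genes, and mt-Nd3 was the single member that also had a TPM ratio of at least 2, against 0.836% of genes.

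The other members did not reach the ratio of 2. With copies added, mt-Nd1 had a log2 ratio of 0.75, mt-Nd2 of 0.72, mt-Nd4l of 0.62, mt-Atp6 of 0.53, mt-Co3 of 0.14, mt-Nd4 of 0.10 and mt-Cytb of 0.10. The rRNAs had log2 ratios of 0.15 for mt-Rnr1 and 0.09 for mt-Rnr2. Values below 0 were seen for mt-Co1, at -0.21, mt-Nd5, at -0.35, and mt-Nd6, at -0.40. Thus 10 of 13 mRNAs were above 0 and 3 below, with a median of 0.45, beside a median of -0.01 over all tested genes. The ratios of the 13 mRNAs, which derive from shared precursors, thus ran from -0.40 to 1.52. mt-Nd4 and mt-Cytb lay between the values of the rRNAs. The mRNAs and rRNAs differ in number and in length, so their spreads are not comparable.

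Shorter mRNAs tended to have larger ratios. Across the 13 mRNAs with copies added, length and log2 ratio had a Spearman correlation of -0.58 and a Pearson correlation of -0.64, given as a description over genes of the same libraries. The effective lengths also differed between the libraries, with mt-Nd5 losing 159 bases in replicate 1 and 166 bases in replicate 2. The part of fragment size in the ratios was not tested.

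**Figure D3:**
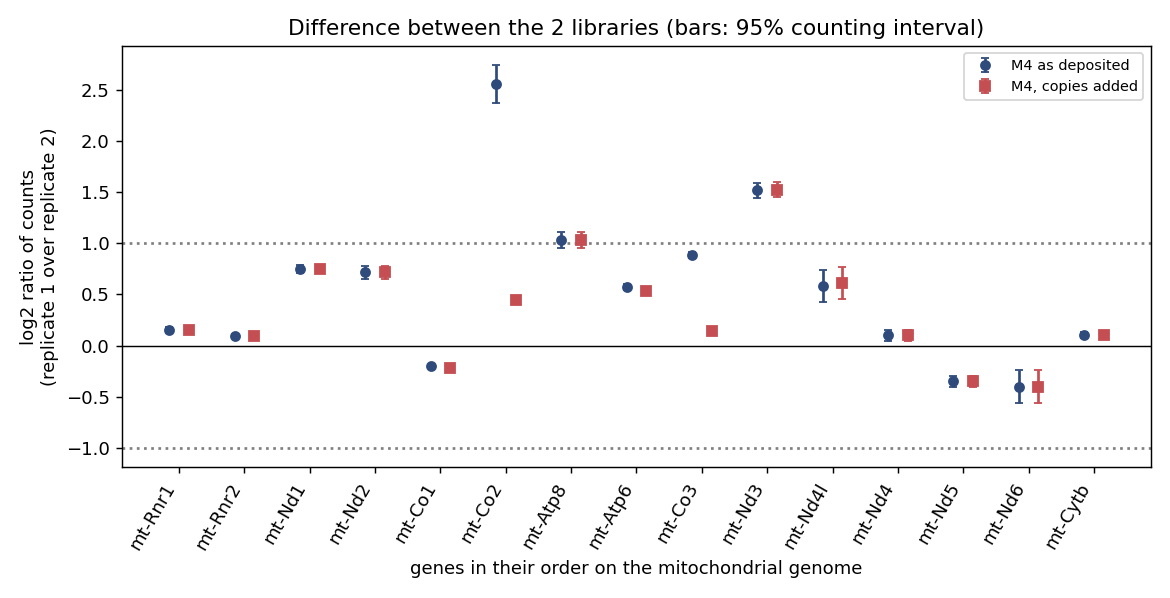
Log2 ratio of scaled counts, replicate 1 over replicate 2, of the 15 measured members in genome order, from M4 as deposited (circles) and with copies added (squares), with bars for the 95% counting interval and dotted lines at a ratio of 2 either way. mt-Co2 moves to 0.45 with copies added, against 2.55 as deposited, while mt-Nd3 stays at 1.52 and mt-Atp8 at 1.03.

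The listed nuclear-encoded partners of these subunits were all detected, and their levels set beside the mitochondrial ones differed by complex. In complex IV the 3 mitochondrial mRNAs averaged 593 to 943 TPM, and the 11 nuclear subunits averaged 46.9 to 222 TPM with a median of 140 TPM. Cox4i1, the largest nuclear subunit, had 214 TPM in replicate 1 against 231 in replicate 2, and Cox5a, another nuclear subunit, was the lowest, with 49.8 TPM in replicate 1 against 44.1 in replicate 2. Every mitochondrial mRNA of complex IV was above every listed nuclear one. The same held in complex V, where mt-Atp8 and mt-Atp6 averaged 599 and 439 TPM and the 15 nuclear subunits ranged from 57.6 to 379.7 TPM. Both statements rest on the copies being added, since as deposited in M4 mt-Co2 averaged 15.4 TPM and mt-Atp6 averaged 337 TPM. Atp5b, the catalytic beta subunit, was the highest nuclear one, with 404 TPM in replicate 1 against 356 in replicate 2. In replicate 2 mt-Atp6, at 358 TPM, was barely above Atp5b, and their ranges over the libraries overlapped. The place of mt-Atp8 also rests on TPM, which for so short a gene depended on the length used.

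Complexes I and III did not have that separation. The 7 mitochondrial mRNAs of complex I averaged 16.3 to 187 TPM with a median of 40.8 TPM, and the 36 nuclear subunits 7.31 to 116 TPM with a median of 45.2 TPM. Ndufa3, an accessory subunit, was the highest nuclear one, with 121 TPM in replicate 1 against 111 in replicate 2. Ndufa11, which sits at the membrane arm, was the lowest on TPM, with 7.51 in replicate 1 against 7.10 in replicate 2. It held 2076 counts in replicate 1 and 2140 in replicate 2. That is more than the 1667 and 1694 of Ndufb2, another subunit, at 40.1 and 39.0 TPM. The place of Ndufa11 thus depended on the length used. In complex III mt-Cytb averaged 138 TPM, within the range of 28.2 to 367 TPM of the 9 nuclear subunits. Uqcr10 had 371 TPM in replicate 1 against 364 in replicate 2, above mt-Cytb in both libraries.

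**Figure D4:**
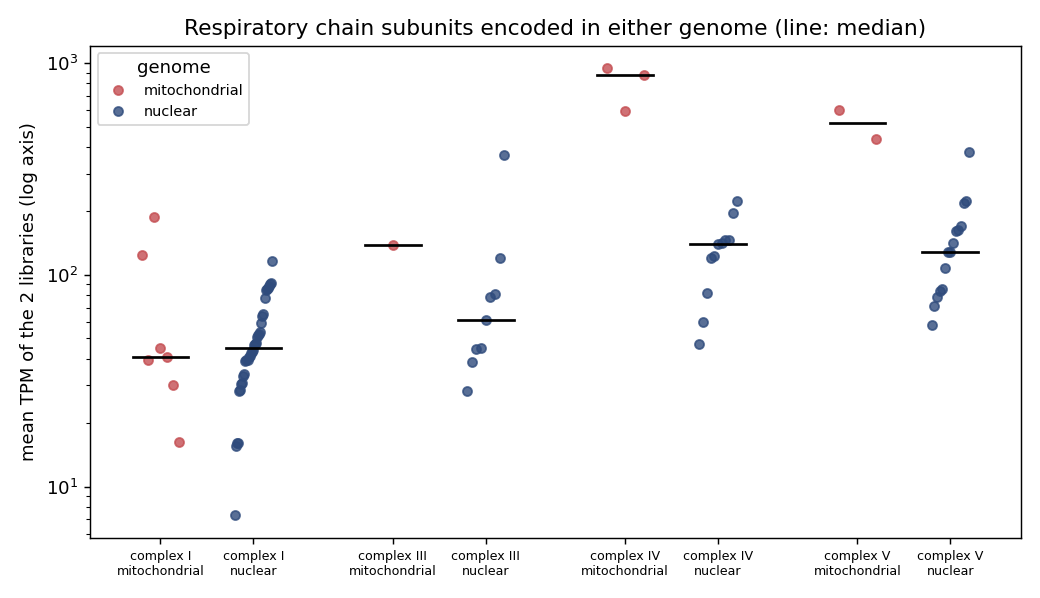
Mean TPM of the 2 libraries on a log axis for subunits encoded in the mitochondrial genome (red, copies added) and in the nucleus (blue), by complex, with a line at each median. In complexes IV and V all mitochondrial points lie above all nuclear points, and in complexes I and III the ranges overlap.

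The nuclear genes that express and maintain the mitochondrial genome were mostly at lower levels than its mRNAs. All 10 genes of mitochondrial transcription were detected, with a median of 4.25 TPM. Tfam, which binds and packages the genome and activates its promoters, had 17.0 TPM in replicate 1 against 12.5 in replicate 2. Polrmt, the mitochondrial RNA polymerase, had 11.8 TPM in replicate 1 against 12.0 in replicate 2. All 11 replication genes were detected as well, with a median of 7.33 TPM. Of these, Ssbp1, the single-strand binding protein, had 19.7 TPM in replicate 1 against 16.7 in replicate 2, and Polg, the catalytic polymerase subunit, had 15.96 TPM in replicate 1 against 14.9 in replicate 2.

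The 18 genes of RNA processing and modification had a median of 6.46 TPM. Trnt1, which adds the CCA end to tRNAs, had 35.2 TPM in replicate 1 against 23.8 in replicate 2, and Hsd17b10, a subunit of the enzyme that cuts tRNA 5′ ends, had 22.4 TPM in replicate 1 against 23.5 in replicate 2. The 16 genes of RNA stability and decay had a median of 12.2 TPM. Slirp, which stabilizes mitochondrial mRNAs together with Lrpprc, had 39.1 TPM in replicate 1 against 29.2 in replicate 2. Rexo2, an exonuclease that degrades short RNAs, had 33.6 TPM in replicate 1 against 23.6 in replicate 2. In this list 15 of 16 genes had a log2 ratio above 0, with a median of 0.30.

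The translation machinery was detected in full over the lists used. The 12 translation factors had a median of 8.15 TPM, and Tufm, the elongation factor that brings tRNAs to the ribosome, had 42.9 TPM in replicate 1 against 36.6 in replicate 2. The 77 mitochondrial ribosomal protein genes had a median of 24.2 TPM. Mrps21 was the highest of them, with 100.5 TPM in replicate 1 against 76.4 in replicate 2. Of 7 regulators of mitochondrial biogenesis 5 were detected. Ppargc1a, a coactivator known for this role in muscle and brown fat, was listed at 0 in both libraries, and its relative Ppargc1b had 0.52 TPM in replicate 1 against 0.46 in replicate 2. Myc had 15.5 TPM in replicate 1 against 14.7 in replicate 2.

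No gene of the 11 nuclear lists was called between the libraries, 0 of 221 tested, where 4.77% of all tested genes were. That share includes many genes under 1 TPM, while nearly all listed genes were above it. Among genes at 1 TPM or more, 0.836% had credibility intervals apart and a TPM ratio of at least 2. The log2 ratios of the 221 listed genes ran from -0.50 for Primpol to 0.68 for Fastkd5, with 166 above 0 and 55 below and a median of 0.11. Over all tested genes 49.0% were above 0. The median of the 13 mitochondrial mRNAs with copies added, 0.45, was above that of every list, the largest of which was the 0.30 of RNA stability and decay, and no test was made of that difference.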

How the data were processed

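Total RNA libraries of CH12.LX, biological replicates 1 and 2, were compared through the deposited gene tables for annotation releases M2, M3 and M4 on mm10, named so per the labels and the library manifests. The aligner and quantifier were not given in the sources used here. Per the file headers, the authors deposited expected counts (estimated counts, not all whole), TPM, FPKM and posterior mean values. Percent values deposited for transcripts (their part of the gene's output) were not needed for gene levels. Effective lengths and credibility bounds of TPM are other deposited columns, per the file headers.

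The M4 table was the main one. Rows with no mouse gene identifier, spike-ins among them, were left out. Symbols and coordinates came from GENCODE M21 on mm10, which matched 42462 of 43346 identifiers. Counts were rounded, genes with at least 10 counts over both libraries were kept, and TMM factors came from edgeR 4.0.16 in R 4.3.3. Each gene was compared by a two-sided exact binomial test (smaller tail doubled, scipy 1.17.1), with Benjamini-Hochberg adjustment over all genes, a threshold of 0.05 and a ratio of at least 2. The binomial comparison was tested on simulated counts with counting error only, which did not cover the copies or the assignment of reads. Intervals are 95% and cover counting error only, and sequencing reads without molecular identifiers are not independent molecules.

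Nuclear copies were found with megablast (BLAST+ 2.17.0) of mitochondrial transcripts against annotated transcripts, not whole chromosomes as first planned, so unannotated copies are not counted. Adding copies means adding their counts to the gene and dividing by the gene's effective length. Sequences are those of the M21 transcripts. Named genes are all members, copies with at least 10 counts, and up to 3 highest and 3 lowest genes of each list. Gm28439 and Ndufb2, and Primpol and Fastkd5 as extremes, were named after their values were seen. The members and gene lists were chosen with earlier results of these data known. Alternatives were the other releases, other scalings, filters, ratio criteria, DESeq2 1.42.0 size factors and leaving out each library. A planned cell type marker is not reported here.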

Additional observations from a re-analysis of the deposited data

How the results depend on the processing

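With the M2 table the mitochondrial share of counts was 0.821%, the share of TPM 0.465%, the complex IV share of mRNA TPM 60.2% and the rRNA share of mitochondrial counts 16.4%, against 0.560%, 0.317%, 43.4% and 21.8% with M4. Adding the copies gave 0.745% of counts, and, chosen after seeing the data, 59.9% for complex IV and 16.4% for rRNA. With copies the share of counts was 0.822% in M2, where the summed counts of all genes were smaller than in M4, at 44833279 in replicate 1 and 50569795 in replicate 2. As a share of protein-coding TPM the mRNAs made 1.11% in M4 and 1.69% in M2. The complex IV share was 69.2% of mRNA counts, 55.3% without mt-Atp8 and, chosen after seeing the data, 69.0% of counts per base with copies summed. The rRNA share was 22.1% in M3, 14.8% of TPM and 20.6% of posterior mean counts. The number of called members was 6 of 15 at a ratio of 1.5, where 10.9% of genes were called, 15 with no ratio criterion, where 50.4% were, and 1 by credibility intervals. Library totals in place of TMM left the 3 calls and put 32.4% of called genes higher in replicate 1, against 22.4%. Leaving out each library gave 0.525% to 0.596% of counts, 0.274% to 0.361% of TPM, 15 members detected, 38.3% to 48.6% for complex IV and 21.7% to 21.8% for rRNA. With counts per base in place of TPM, several orders turned round. In both libraries these included mt-Atp8 against mt-Atp6, mt-Atp8 against mt-Rnr2 and mt-Nd4l against mt-Nd2. In replicate 1 they included mt-Nd4l against mt-Nd4 and mt-Co1 against mt-Co3. In replicate 2 they included mt-Nd3 against mt-Nd1 and mt-Nd4l against mt-Nd5. Other orders on TPM can depend on the length used as well. Separately, mt-Co2 was above the listed nuclear complex IV subunits with its copies added and below them in M4 as deposited. No paired analysis was possible because a single group with no contrast was sequenced. With 2 libraries the SD is known only roughly, and RNAs as short as tRNAs are outside what these tables measure.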
